A study of Mus musculus with 4 samples.

Results

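The genes described here belong to the ubiquitin system, and were chosen by their full names in the deposited annotation of a CHD4 peak list. A gene was taken where its name contained "ubiquitin", "F-box", "proteasome", "ring finger", "tripartite motif" or "cullin". No measured value entered this rule, but it was chosen with earlier results of these data known. After rows with the same coordinates were merged, 38 of the 1849 CHD4 intervals met the rule, and they named 35 of 1517 genes. In the mouse cells labelled spermatogonial, 16 of these 38 intervals were promoter intervals (1 kb or less from a transcript start), and the highest folds of CHD4 over IgG were at Smurf1, Trim27 and Fbxo36. The word "proteasome" matched none of the named genes, and "cullin" matched only Dcun1d3, which acts on cullins and is not one. The set is therefore made of genes of ubiquitin ligase families, deubiquitinases and single members of other classes, and it holds no proteasome subunit.

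The study mapped the chromatin remodeller CHD4 by CUT&Tag, in which an antibody tethers a transposase to chromatin so that the DNA beside the target is cut and tagged. It has 2 samples with a CHD4 antibody and 2 control samples, all from wild-type C57BL/6 mice, with cells taken from digested testes. Per the labels, the antibody of the control samples was a rabbit anti-mouse IgG coupled to horseradish peroxidase, which is sold as a secondary antibody. The labels do not say whether it served as the control in the tagging reaction, and every fold and IgG expectation below depends on that control. Neither the age of the mice nor the step that enriched spermatogonial cells is given in the sources used. A peak list holds no expression values, so the labelled cell type could not be checked against its markers. The list is 1 call of CHD4 against IgG with no value per sample. No value below therefore has an error between replicates, and none was tested across samples.

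Ubiquitin is a small protein that is attached to other proteins in a cascade of enzymes. An activating enzyme (E1) passes it to a conjugating enzyme (E2), and a ligase (E3) selects the substrate. Ligases of the RING class, which include many of the tripartite motif (TRIM) proteins, bring the E2 to the substrate. HECT and RBR ligases instead first take the ubiquitin onto themselves. Cullins are scaffolds of large RING ligases in which F-box proteins hold the substrate. Deubiquitinases remove the mark, and the proteasome degrades many of the marked proteins. CHD4 is the motor subunit of NuRD, a complex that moves nucleosomes and removes acetyl groups from histones. In spermatogenesis the ubiquitin system is known for the turnover of cell cycle regulators and for histone removal in spermatids.

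Promoter sequences are shown for 6 members to set the CHD4 interval against the bases before the start. The RefSeq promoter table used here (build GRCm38.p6, whose coordinates equal those of mm10) held a window for 14 of the 16 members with a promoter interval, and the interval overlapped that window in 10. Each line gives the 250 bases before the RefSeq start, 5′ to 3′ along the gene, and capitals mark the bases inside the CHD4 interval. RefSeq starts can differ from the starts in the authors' annotation.
Rnf103 (chr6:71493627-71493876, plus strand): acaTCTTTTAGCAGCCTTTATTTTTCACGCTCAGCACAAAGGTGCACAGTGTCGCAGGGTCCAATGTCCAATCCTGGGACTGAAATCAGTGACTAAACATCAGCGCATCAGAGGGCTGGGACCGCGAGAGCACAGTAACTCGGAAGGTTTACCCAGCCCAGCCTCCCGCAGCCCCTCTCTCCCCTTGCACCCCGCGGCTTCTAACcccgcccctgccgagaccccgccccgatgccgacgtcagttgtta
Marchf8 (chr6:116337772-116338021, plus strand): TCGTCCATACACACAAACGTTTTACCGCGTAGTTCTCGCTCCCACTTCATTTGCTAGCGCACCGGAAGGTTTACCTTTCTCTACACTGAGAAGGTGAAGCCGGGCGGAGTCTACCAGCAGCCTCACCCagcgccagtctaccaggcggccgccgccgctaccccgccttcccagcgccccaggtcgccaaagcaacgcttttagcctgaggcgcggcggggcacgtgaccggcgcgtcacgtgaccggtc
Ube3a (chr7:59228500-59228749, plus strand): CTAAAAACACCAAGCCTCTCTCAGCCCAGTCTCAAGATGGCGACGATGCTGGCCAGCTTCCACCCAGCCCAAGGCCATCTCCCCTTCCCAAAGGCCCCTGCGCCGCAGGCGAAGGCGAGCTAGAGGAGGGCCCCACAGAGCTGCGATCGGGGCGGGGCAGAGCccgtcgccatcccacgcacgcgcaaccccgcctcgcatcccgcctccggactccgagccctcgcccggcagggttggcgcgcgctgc
Mkrn1 (chr6:39420370-39420619, minus strand): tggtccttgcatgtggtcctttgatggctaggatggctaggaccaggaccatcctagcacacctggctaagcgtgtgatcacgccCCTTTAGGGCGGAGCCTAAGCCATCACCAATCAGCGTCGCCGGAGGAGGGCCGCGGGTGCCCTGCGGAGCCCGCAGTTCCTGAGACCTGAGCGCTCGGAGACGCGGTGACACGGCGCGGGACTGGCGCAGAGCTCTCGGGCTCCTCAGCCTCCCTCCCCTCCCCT
Ufd1 (chr16:18812044-18812293, plus strand): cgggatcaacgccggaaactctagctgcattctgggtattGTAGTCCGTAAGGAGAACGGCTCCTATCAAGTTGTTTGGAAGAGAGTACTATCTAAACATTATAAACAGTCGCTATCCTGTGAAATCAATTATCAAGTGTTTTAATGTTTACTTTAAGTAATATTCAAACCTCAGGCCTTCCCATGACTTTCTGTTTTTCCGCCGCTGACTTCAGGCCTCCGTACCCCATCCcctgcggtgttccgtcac
Fbxo33 (chr12:59219484-59219733, minus strand): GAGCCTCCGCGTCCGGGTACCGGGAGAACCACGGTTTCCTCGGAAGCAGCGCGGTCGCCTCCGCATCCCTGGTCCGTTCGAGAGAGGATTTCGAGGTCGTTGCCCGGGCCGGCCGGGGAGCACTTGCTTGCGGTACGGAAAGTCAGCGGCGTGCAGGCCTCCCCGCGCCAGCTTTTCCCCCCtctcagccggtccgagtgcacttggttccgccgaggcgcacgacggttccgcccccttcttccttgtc

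In these lines the capitals run from 247 to 46 bases before the start of Rnf103 and from 210 to 19 bases before that of Ufd1. At Mkrn1 they reach the last base before the start, because that interval contained it. The median GC content of the 10 windows was 63.6%, with a range from 44.8% at Ufd1 to 70.0% at Ube3a, and the median number of CpG sites was 19. Over the 462 windows of the table that any CHD4 interval overlapped, the medians were 60% and 17 CpG sites, and over all 32851 windows they were 52.4% and 6. Most of the member windows were therefore rich in GC, as were the other windows with an interval, and Ufd1 was the exception.

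Motifs were searched as exact letters on both strands of the same 250 bases. The GC box (GGGCGG) was found in 9 of the 10 member windows, against 64.9% of the overlapped windows and 32.7% of all windows. It lay within the CHD4 interval at Mkrn1, Marchf8 and Ube3a, starting 159, 149 and 101 bases before the start, and outside it at the other 6. The CCAAT box (CCAAT) was found in 3 windows, against 41.3% of the overlapped windows and 33.8% of all. At Rnf103 it occurred at 190 and 183 bases before the start, both inside the interval. The ETS motif (CCGGAAG) was found in 3 windows, at Marchf8, Mib2 and Dcun1d3, against 14.5% and 6.91%. The antioxidant response element (TGACNNNGC) was found in 2, at Mib2 and Mkrn1, against 14.9% and 10.2%. Dcun1d3 held the CRE palindrome (TGACGTCA), against 4.98% of the overlapped windows and 1.55% of all. Marchf8 held the E-box (CACGTG) at 29 and 13 bases before its start, against 9.09% and 6.02%. Both motifs lay outside the CHD4 interval there. The only TATA box (TATAAA) was at Ufd1, 150 bases before the start and so away from the usual position of that element. Of the overlapped windows 5.84% hold it, and of all windows 12.4%. No window held the AP-1 motif (TGACTCA) or the longer motifs of NRF1, YY1 and ZNF143. These are rare in the overlapped windows too, at 5.63%, 3.25%, 0.866% and 0.433%. These matches describe letters in 10 windows and do not show that a factor binds there.

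By the authors' annotation 16 of the 38 intervals, or 42.1% (exact 95% binomial interval 26.3 to 59.2), were in the promoter class of 1 kb or less. Over all 1849 intervals the share was 34.1% (32.0 to 36.3), which lies inside the interval of the member share. A further 5 member intervals lay 1 to 3 kb from a start, 6 were in introns, 7 were distal intergenic, 2 were in exons of other transcript models, 1 was in a 5′ UTR and 1 lay just downstream of a gene. The median distance to the start was 2.47 kb (95% interval 0.132 to 8.68). Over all intervals it was 5.63 kb, which lies inside the interval of the member median. The member median was 1.27 kb with only the nearest interval of each gene kept, which favours short distances. In the 930 intervals of highest fold it was 6.1 kb, against 10.2 kb over all of them. Beyond 10 kb lay 10 member intervals, or 26.3%, against 41.3% of all intervals. Of the 38 member intervals 19, or 50%, overlapped the RefSeq gene they were named for, against 54.4% of all intervals. No test was made of these differences between members and other intervals.

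Within promoters most intervals lay on the upstream side of the start that the authors' annotation used. Of the 16 promoter intervals 10 ended before the start, 5 contained it and 1, at Wwp2, began after it. Among all 631 promoter intervals 33.9% ended before the start, 46% contained it and 20.1% began after it. The 10 upstream intervals ended 19 bases before the start at Ufd1, 63 at Rnf103, 65 at Fbxo5, 81 at Fbxl12os, 88 at Ube3a, 121 at Mib2, 125 at Marchf8, 132 at Arih1, 321 at Trim44 and 636 at Smurf1. Of these, 8 ended within the 132 bases next to the start, and only those of Trim44 and Smurf1 were set further away. The intervals of Ufd1, Marchf8, Arih1 and Smurf1 nevertheless overlapped the RefSeq gene of that name. They were thus upstream of the start used but not of the whole gene. By the starts in the authors' annotation, which all of these counts use, the intervals that contained a start were those of Mkrn1, Trim41, Fbxo33, Usp5 and Dcun1d3, and the last 2 began only 6 and 2 bases before it. The median width of the promoter intervals was 202 bases, against 262 over all promoter intervals.

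**Figure D1:**
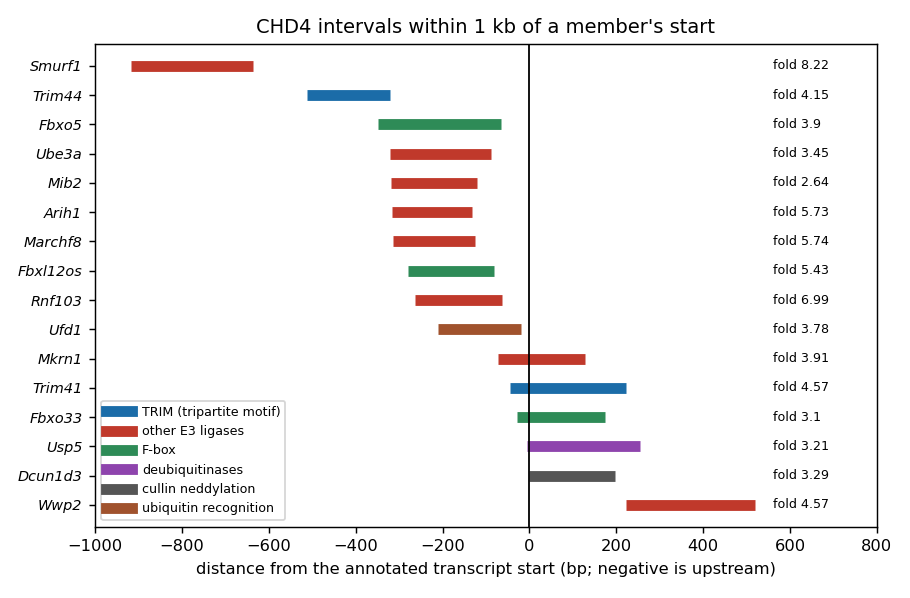
Each bar is a CHD4 interval within 1 kb of a member's annotated transcript start, drawn by its distance from that start in bases along the gene, coloured by enzyme class and with the authors' fold at the right. Of the 16 intervals 10 end before the start, and that of Smurf1, the farthest upstream, has the highest fold, 8.22.

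The authors' fold was read as the peak caller's usual ratio at a summit, the CHD4 signal plus 1 over the IgG background plus 1. Its median was 4.57 in the 38 member intervals, the quartiles were 3.91 and 5.66, and values ran from 2.64 to 8.22. Over all intervals the median was 4.76, with quartiles of 4.03 and 5.64, and 16 of the 38 members were at or above that median. None of the members approached the highest fold of the list, 13.6. A q-value under 0.01 was reached by 29 of the 38 intervals, or 76.3%, against a background of 77.3% of all intervals. In both measures the members were close to the list as a whole.

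The fragments behind these folds were recovered from the deposited fold and −log10 p of each summit. Member summits held a median of 28.5 CHD4 fragments, with a range from 12 to 135. Of the 38, 9 or 23.7% held fewer than 20. Over all intervals the median was 27, and 25.6% held fewer than 20. By this model the CHD4 data were 2.33 times as deep as the IgG data, so a CHD4 number is set against IgG after it is scaled down by that ratio. Member promoter intervals held a median of 49 fragments over an IgG expectation of 3.14, and member intervals elsewhere 26.5 over 1.21. Their median folds were 4.03 and 4.79. Over all intervals the corresponding folds were 4.32 and 4.98, so the members followed the same order. A promoter interval thus had more CHD4 fragments and also more IgG background.

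**Figure D2:**
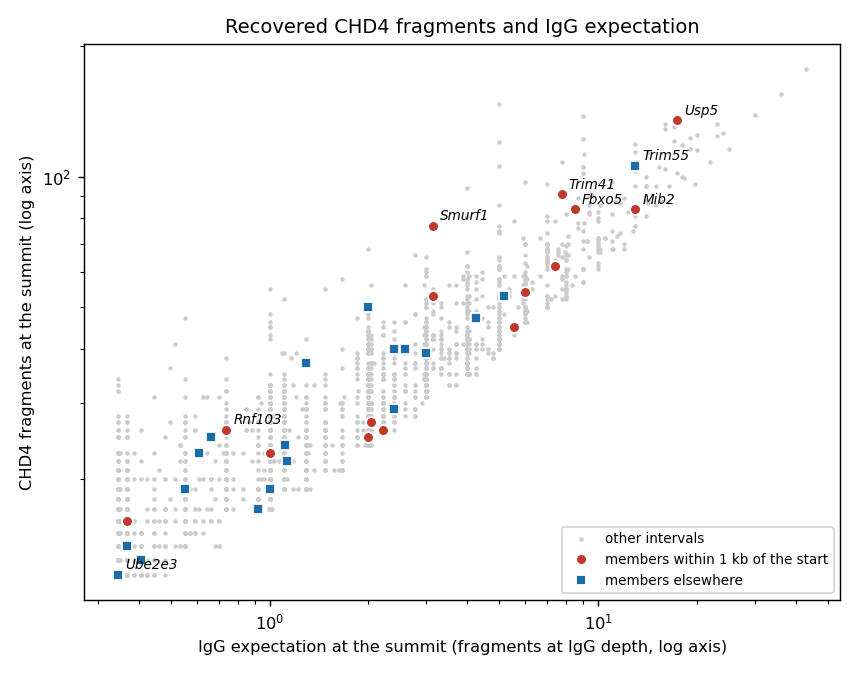
CHD4 fragments at the summit are plotted against the IgG expectation at the same place, both on log axes, for 36 member intervals, within 1 kb of a start (circles) or elsewhere (squares), and all other intervals (grey). Usp5 with 135 fragments lies over an expectation of 17.4, whereas Smurf1 with 77 lies over 3.14.

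Among the ligases other than TRIM and F-box proteins, 14 genes had 1 interval each, and 8 of the 14 lay at promoters (57.1%, exact interval 28.9 to 82.3). Folds ran from 2.64 at Mib2 to 8.22 at Smurf1, with a median of 4.57. The HECT ligases found by the name rule, Smurf1, Wwp2 and Ube3a, all had promoter intervals. Nedd4 and Nedd4l, HECT ligases that the rule missed, had intervals 33.5 and 23.3 kb from a start. Smurf1, which marks SMAD proteins and other signalling components for degradation, had the highest fold and the lowest q of all members (chr5:144898630-144898912, fold 8.22, q = 1.4e-17). Its summit held 77 fragments (exact Poisson interval 60.8 to 96.2), or 33 at IgG depth, over an expectation of 3.14. The interval lay 636 bases before the start that the authors' annotation used, yet inside the longer RefSeq gene Smurf1. Wwp2, a ligase of the NEDD4 family, had a fold of 4.57 from 19 fragments, at 223 bases after its start (chr8:107502791-107503087). Ube3a, the ligase whose loss in neurons causes Angelman syndrome, had a fold of 3.45 from 54 fragments, the expectation being 6 (chr7:59228429-59228662).

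Arih1, an RBR ligase which works together with cullin ligases, had a promoter interval with a fold of 5.73 and 53 fragments over 3.14 (chr9:59486750-59486934, q = 5.1e-08). Its 53 fragments over the same IgG expectation as Smurf1 gave it the lower fold.

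Of the RING ligases outside the TRIM family, 4 had promoter intervals. Rnf103, a ligase of the endoplasmic reticulum, had a fold of 6.99 from 26 fragments over 0.738 (chr6:71493630-71493831). Marchf8, which removes receptors from the cell surface, had a fold of 5.74, but from only 16 fragments over 0.369 (chr6:116337709-116337899). Mkrn1, an RNA-binding ligase, had a fold of 3.91 and the weakest q among the members, 0.038 (chr6:39420333-39420534). Mib2, which acts on Notch ligands, had the lowest fold, 2.64, although its 84 fragments were among the highest numbers, because the IgG expectation there was 13 (chr4:155669319-155669516). Fold and fragment number therefore ordered these 4 promoters differently.

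The other 5 RING ligases had intervals away from the start. Dtx1, the Notch regulator deltex, had an interval with 2 summits of fold 4.43 and 4.36 in intron 2 (chr5:120698772-120699296). Znrf2, a membrane-associated ligase, also had 2 summits, of fold 5.11 and 4.76, in intron 2 at 49.4 kb (chr6:54866887-54867223). Rnf213, a giant ligase with an ATPase motor, had a fold of 4.31 at 1.16 kb (chr11:119391706-119391936). Pja2, which acts on regulatory subunits of protein kinase A, had 4.57 at 9.94 kb (chr17:64341854-64342108). Marchf10, a ligase of developing sperm, had 4.57 at 51.4 kb (chr11:105508130-105508328). Its 12 fragments (exact Poisson interval 6.2 to 21) over the lowest expectation of the list, 0.346, made it one of the members with the least support. That interval lay 229 bases from the start of Gm35828, a gene that the annotation did not name for it.

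**Figure D3:**
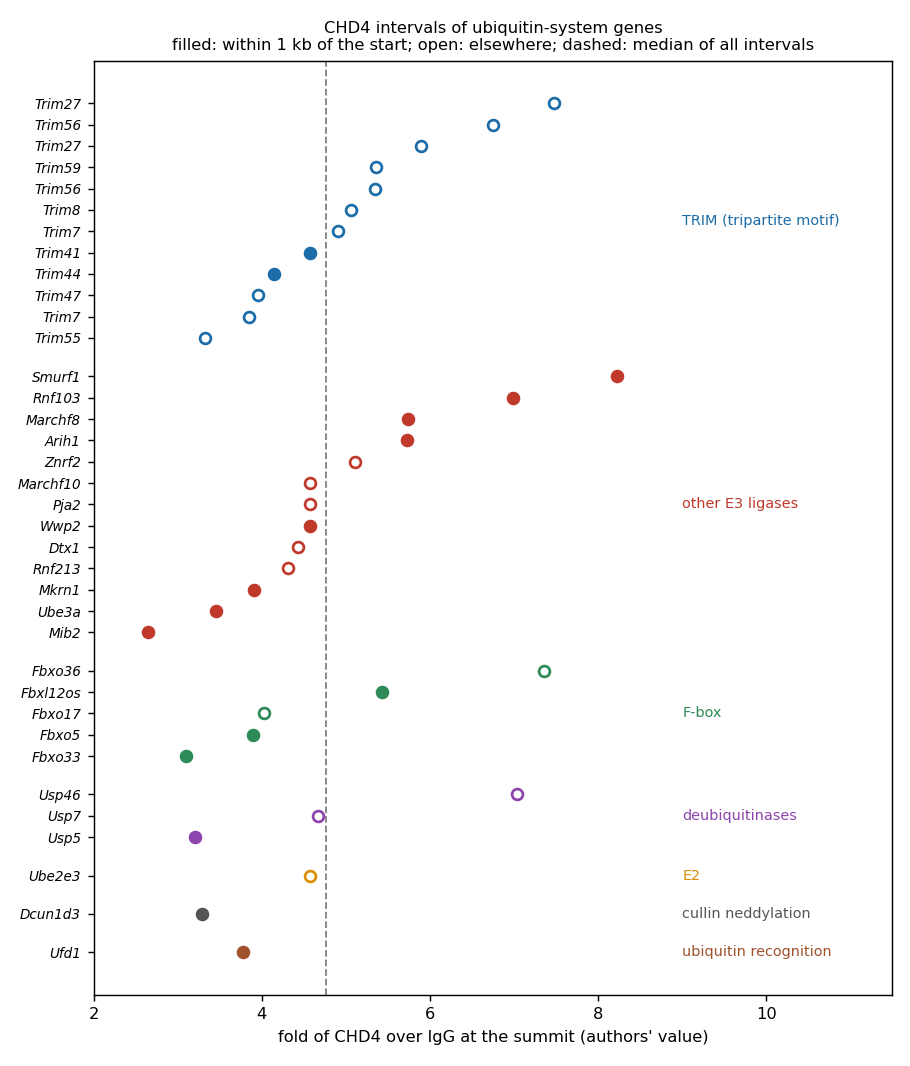
Each point is 1 of 36 member intervals, placed by the authors' fold of CHD4 over IgG and grouped by enzyme class, filled where the interval lies within 1 kb of the start. The folds of every class with 3 or more intervals fall on both sides of the dashed line, the median of 4.76 over all intervals, and the TRIM class has mostly open points.

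The tripartite motif family supplied 12 intervals at 9 genes, and most lay more than 1 kb from a start. Only Trim41 and Trim44 had a promoter interval, 2 of 12 or 16.7% (exact interval 2.09 to 48.4), against 14 of 26 or 53.8% (33.4 to 73.4) in the other members. The share of 34.1% over all intervals lies inside the TRIM interval. The median distance was 5.9 kb in TRIM genes, near the 5.63 kb of all intervals, and 0.429 kb in the other members. The median fold was 4.99, and 7 of the 12 were at or above the median of all intervals. Several of these intervals share a locus, with 3 at Trim41 and Trim7, 2 at Trim27 and 2 at Trim56. Of the 12, 9 lay within 100 kb of another interval of the list, whichever gene that interval named. The same held for 6 of the 26 others and 42.6% of all intervals. Intervals that share a locus are not independent observations of the family, and the difference in promoter share was not tested.

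Trim27, first described as the ret finger protein and abundant in male germ cells, had 2 intervals. The stronger (chr13:21169740-21170383) had 2 summits, of fold 7.48 from 50 fragments and 5.19 from 34, each over an expectation of 2. It lay 9.06 kb before the Trim27 start and overlapped the transfer RNA genes n-TLaag5, n-TLaag7 and n-TMcat15. The other, 44.3 kb after the start, had a fold of 5.89 from 19 fragments over 0.554 (chr13:21234119-21234327). Neither overlapped Trim27, and 9 transfer RNA genes lie in the 64.6 kb that the pair spans.

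Trim41 and Trim7 are neighbours on chromosome 11, and 3 intervals lay within 39.7 kb there, together with 7 transfer RNA genes. The Trim41 promoter interval (chr11:48817131-48817397) had a fold of 4.57 from 91 fragments over 7.75, with q = 5.9e-11. Trim7, which binds the glycogen primer glycogenin, had an interval of fold 4.91 in its intron 1 (chr11:48834086-48834336). It had another of fold 3.85 at 8.68 kb, over the transfer RNA gene n-TVaac7 (chr11:48856582-48856874). Trim55, a ligase of the muscle sarcomere, was named for an interval 15.6 kb away that overlapped n-TYgta1 and n-TYgta2 (chr3:19628369-19628902). That interval had a fold of 3.32 from 106 fragments over 13, the second highest fragment number among the members. In all, 3 of the 38 member intervals, or 7.89%, overlapped a gene for a small nuclear, small nucleolar or transfer RNA, all 3 in the TRIM class, against 44 of 1849 intervals or 2.38%. Such genes occur in many copies, the handling of reads with several matches is not stated in the labels, and their part in these folds was not tested.

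The other TRIM genes had no such overlap. Trim56, a ligase of innate immune signalling, had intervals of fold 6.75 and 5.34 only 0.558 kb apart, at 13.9 and 13.1 kb from its start (chr5:137102119-137102333 and chr5:137102891-137103119). Trim59 had a fold of 5.36 at 2.81 kb before its start (chr3:69047564-69047906). Trim8 had 2 summits, of fold 5.06 and 3.98, at 2.14 kb after the start (chr19:46503786-46504419). Trim47 had a fold of 3.95 at 2.81 kb (chr11:116103819-116104270), and Trim44 one of 4.15 at its promoter from 27 fragments (chr2:102401221-102401411). Thus Trim8, Trim47 and Trim59 lay within 3 kb of a start but outside the promoter class. Of these, only the Trim8 interval overlapped the RefSeq gene of its name.

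**Figure D4:**
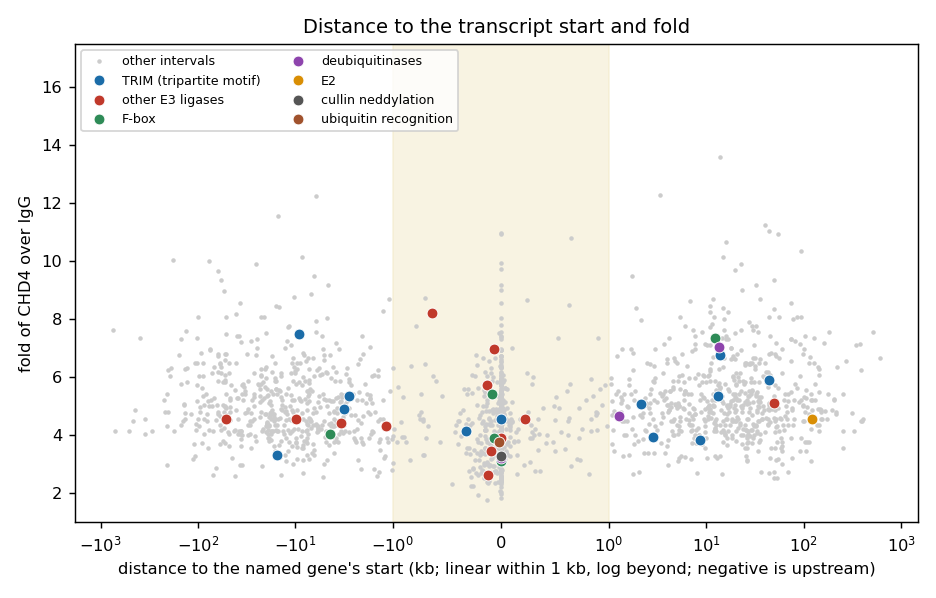
The authors' fold is plotted against the signed distance to the named gene's start, linear within 1 kb (shaded) and on a log scale beyond, for 36 member intervals by class and for all other intervals in grey. Members lie from 51.4 kb upstream (Marchf10) to 120 kb downstream (Ube2e3), and 16 lie in the shaded band.

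F-box genes had 5 intervals, 3 of them at promoters. Fbxo5 encodes EMI1, an inhibitor of the anaphase-promoting complex. Its promoter interval had a fold of 3.9 from 84 fragments over 8.49 (chr10:5805665-5805948, q = 4.6e-08). Fbxo33 had a fold of 3.1 from 45 fragments over 5.54, at an interval over its start in the authors' annotation (chr12:59219552-59219754). The same interval ended 69 bases before the RefSeq start used for the sequence above. Fbxl12os, which the RefSeq table lists as a transcribed pseudogene on the strand opposite to Fbxl12, had 5.43 from 23 fragments over 1 (chr9:20607202-20607400). It entered the set through its name and is not listed as protein-coding. Fbxo36 had the highest fold of the class, 7.36 from 37 fragments over 1.29, in intron 2 at 12.3 kb (chr1:84881456-84881765, q = 8e-08). Fbxo17 had 4.03 in intron 2 (chr7:28727932-28728133). The promoters of this class thus had more IgG background than Fbxo36, except that of Fbxl12os.

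No cullin gene was named. Dcun1d3, which regulates the attachment of NEDD8 to cullins, had an interval of fold 3.29 from 62 fragments over 7.38 (chr7:119895928-119896127). The interval contained the start in the authors' annotation, lay 67 bases from a start of the neighbour Lyrm1 and overlapped both genes. The interval of Ufd1 likewise lay 112 bases from the start of Cdc45, a replication factor on the opposite strand. That of Usp5 lay 735 bases from the start of Cdca3. For these 3 of the 16 promoter intervals the promoter table gives a start of another gene within 1 kb. Among all 631 promoter intervals it does so for 126. An interval near both starts cannot be assigned to one of them.

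Among the deubiquitinases, Usp5, Usp7 and Usp46 had 1 interval each. Usp5, also called isopeptidase T, takes apart free ubiquitin chains. Its promoter interval held 135 fragments (exact Poisson interval 113 to 160), the most of any member, yet had a fold of only 3.21, because the IgG expectation was 17.4 (chr6:124829181-124829441, q = 2.1e-09). Usp46 was the reverse: its 2 summits had folds of 7.04 and 6.5 from 25 and 28 fragments, over expectations of 0.664 and 1 (chr5:74051565-74052137). They lay in an exon of another transcript model at 13.6 kb, inside Usp46 and overlapping the long non-coding RNA gene Gm52817. Usp7, which stabilises the p53 regulator MDM2, had a fold of 4.67 from 13 fragments over 0.406, at 1.27 kb (chr16:8790764-8791034, q = 0.022). That interval did not overlap the RefSeq gene Usp7. The order of these 3 genes by fold is thus not their order by fragments.

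The E2 class was represented by Ube2e3 alone. Its interval lay 120 kb from the start, the longest distance among the members, and rested on 12 fragments over 0.346 (chr2:79038710-79038972, fold 4.57, q = 0.011). The interval did not overlap the RefSeq gene Ube2e3. No E1 gene was named. Ufd1, which works with the ATPase VCP to extract ubiquitin-marked proteins, had its promoter interval at a fold of 3.78 from 26 fragments over 2.21 (chr16:18812084-18812275, q = 0.02). These classes hold 1 gene each, so they allow no statement about the class.

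To see how much of each family the list covers, families were also counted by gene symbol among the protein-coding genes of the RefSeq table. Of all 21887 protein-coding genes, 6.07% were given at least 1 interval, and of 496 genes with symbols of the ubiquitin-system families 40 were, or 8.06% (exact interval 5.82 to 10.8). The 40 include Usp6nl, which matches the deubiquitinase stem but encodes a Rab GTPase-activating protein. Without it they were 39 of 495, or 7.88% (5.66 to 10.6). TRIM genes were named in 9 of 68 cases (13.2%, 6.23 to 23.6) and other ligases in 18 of 159 (11.3%, 6.85 to 17.3). F-box genes were named in 4 of 78 cases (5.13%) and deubiquitinase symbols in 4 of 60 (6.67%), or 3 of 59 (5.08%) without Usp6nl. E2 genes were named in 1 of 37 cases (2.7%), cullins in 0 of 8 (exact upper limit 36.9%) and E1 genes in 0 of 7 (41%). At promoters, 16 of the 496 genes had an interval, or 3.23%, against 2.55% of all protein-coding genes. For TRIM genes this share was 2.94% and for other ligases 5.66%. The symbol lists were drawn up after the members were known, the intervals treat genes as independent although TRIM genes lie in clusters, and gene length was not taken into account. The shares are therefore descriptions, and no family was tested.

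Proteasome subunits were the least covered of the larger families, at 1 of 47 genes (2.13%, exact interval 0.0539 to 11.3), and none of the 47 had a promoter interval. The background share of 6.07% lies inside that interval. The one subunit gene was Psmc1, an ATPase of the regulatory particle, which the annotation calls a protease subunit, so that the word "proteasome" did not find it. Its interval lay 36.6 kb from the start, with a fold of 8.56 from 25 fragments over 0.369. It is not counted among the 38 intervals.

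**Figure D5:**
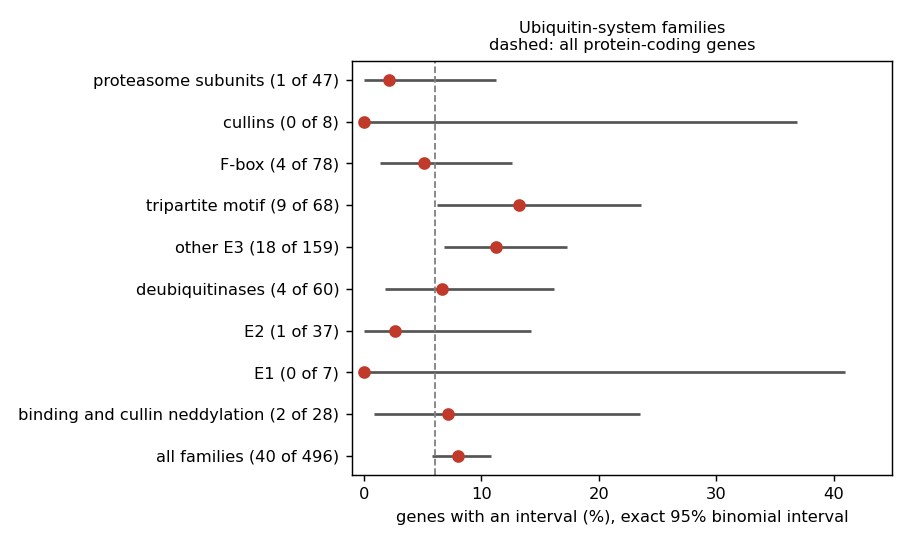
For the ubiquitin-system families drawn, counted by gene symbol, the point gives the percentage of its protein-coding genes with at least 1 CHD4 interval and the line its exact 95% binomial interval. The dashed line marks 6.07% for all protein-coding genes; TRIM genes and other ligases lie to its right, at 13.2% and 11.3%, and proteasome subunits to its left, at 2.13%. The deubiquitinases and the bottom line include Usp6nl, which only shares their symbol stem.

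Other genes of the pathway whose names escape the words were taken from a list of 77, of which 76 are not members. Of these, 7 had an interval, or 9.21%, against 6.07% of all protein-coding genes. A transcript start lay inside 5 of the 7 intervals, against 15.7% of all intervals. The list is short, and neither share was tested. Anapc5 and Anapc15, subunits of the anaphase-promoting complex, had promoter intervals of fold 3.02 and 3.87, from 61 and 50 fragments. Anapc1, another subunit, had a fold of 6.78 from 31 fragments at 5.1 kb. Cops6, a subunit of the signalosome that removes NEDD8 from cullins, had 3.76 at its start from 24 fragments. Cblb, a ligase that restrains receptor signalling, had 3.5 from 48, and Birc2, a ligase that inhibits cell death, had 3.52 from 47. Tnfaip3, an editor of ubiquitin chains in inflammatory signalling, had an interval of fold 4.33 at 30.4 kb. The remaining 69 genes of this list, among them Mdm2, Keap1, Skp1, Skp2, Rbx1 and Vcp, were not named for any interval.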

How the data were processed

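CUT&Tag samples of CHD4 (2) and of IgG (2) were grouped by their titles. The submitters' processing notes name MACS2 2.1.2, Bowtie2 2.2.5, Trim Galore 0.5.0 and the build mm10, without order or settings. The authors deposited 1 annotated peak list. Per the file headers it gives a fold (FC), the ratio of CHD4 to IgG, and its log2; by column order the deposited −log10 p and −log10 q follow, and a deposited score is 10 times the −log10 q without decimals. The largest q was 0.049. Members were found by words in the gene names, and the 43 matching rows were collapsed to 38 intervals. Each interval takes the values of its summit of highest fold. Enzyme classes came from words in the names. The members, lists and classes were chosen with earlier results of these data known. Genes were matched by numeric identifier to RefSeq (GRCm38.p6), for 1516 of 1517 genes and all 35 members, 2 of whose symbols (Marchf8 and Marchf10) had become dates in the list.

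Fragments were recovered as whole numbers that give the deposited fold and −log10 p under a Poisson model. A scale of 0.4287 gave 1 solution at each of 2066 summits, to within 0.0005, and the method found 99% of simulated summits. The simulation did not reach the lowest fragment numbers (Ube2e3, Marchf10 and Usp7) or the highest IgG expectations (such as Usp5, Trim55 and Mib2). The 99% therefore does not cover these members. Coordinates are counted from 1. Values were computed with Python 3.11.15, pandas 2.3.3 and SciPy 1.17.1. Binomial and Poisson intervals are exact at 95% and cover counting error only. The 95% intervals of medians were read from the ranked values of the members. No column of the list belongs to 1 sample. Of the 38 intervals, 36 are described singly and 2 are included in counts and medians but not reported here singly. The genes described were named once, with full values for the highest and lowest folds, promoter members of high fold, several intervals, low q, long distances and small classes. Alternatives were a stricter q, the intervals of highest fold, other units and other promoter limits, and narrower or wider name rules.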

Additional observations from a re-analysis of the deposited data

How the results depend on the processing

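No paired analysis was possible because the list has no value for any single sample, although the samples carry the numbers 1 and 2 in both groups. For the same reason no replicate could be left out. Leaving out names that only mention a ubiquitin domain removed no gene, so it tested nothing. Among the other 34 alternative values 29 stayed within the 95% interval of the main value, or within 1.5 times a main count. Those intervals were wide: 0.132 to 8.68 kb for the median distance, 26.3 to 59.2% for the promoter share and 4.03 to 5.34 for the median fold. The alternatives also reused largely the same member intervals. Staying inside was therefore likely from the start, and the tally cannot show that the results are stable. A distance of 6.1 kb, for example, counted as unchanged from 2.47 kb. In the 930 intervals of highest fold, 16 member intervals at 14 genes remained, their median fold was 5.81 (all intervals 5.64), their promoter share 31.2% (23.3%), their median distance 6.1 kb (10.2 kb), and 3.43% of the 496 genes with family symbols were named. For that last share no value over all protein-coding genes was computed. Counting only intervals that contain the start, the promoter share was 13.2% (all intervals 15.7%). The first of these settings selects on fold and the second narrows the promoter, so the lower numbers and higher fold follow from their construction. With q under 0.01 there were 29 intervals, 41.4% of them at promoters (all intervals 33.9%), at a median distance of 3.13 kb (5.74 kb). With promoters taken to 3 kb the share was 55.3%. Of all intervals 34.1% were in the promoter class of 1 kb and a further 8.06% lay 1 to 3 kb from a start. With only the interval nearest to the start kept for each gene, the promoter share was 45.7% and the median distance 1.27 kb. This choice favours short distances and promoter intervals, and it was not applied to all intervals. Across the settings the distance of 2.47 kb moved by more than 1.5 times in both directions.

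Further settings were chosen after seeing the data. Without the intervals on small RNA genes, 35 intervals had a promoter share of 45.7% (all intervals 34.2%). Their median distance was 1.27 kb (5.63 kb). With the 5 family genes that the words miss, 43 intervals had a share of 39.5%; with Usp6nl, which only shares a symbol stem, 44 had 38.6%. Depth limits the weakest members: Ube2e3, Marchf10 and Usp7 rest on 12, 12 and 13 fragments, with exact Poisson intervals from 6.2 to 21 for the first pair and from 6.92 to 22.2 for Usp7.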

Other observations

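Ligases of the NEDD4 family that the name rule missed also had intervals. Nedd4, the founding HECT ligase of the family that includes Wwp2 and Smurf1, had an interval of fold 7.57 from 33 fragments at 33.5 kb from its start. Nedd4l, its close relative, had 1 of fold 4.62 from 30 fragments at 23.3 kb. Lnx1, a RING ligase that binds the Notch regulator NUMB, had 1 of fold 6.98 from 56 fragments at 74.7 kb. Only Syvn1, the ligase of degradation from the endoplasmic reticulum, had an interval that contained a start, with a fold of 3.76 from 24 fragments. Usp6nl, which shares a symbol stem with the deubiquitinases but encodes a Rab GTPase-activating protein, had a fold of 5.52 from 15 fragments at 27.2 kb. These genes were singled out after their values were seen.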
